A study of Rattus norvegicus with 8 samples.

Results

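The cluster that gives miR-183, miR-96 and miR-182 is a group of 3 microRNA (miRNA) genes that lie close together on rat chromosome 4. Its products were taken by name from the array's non-control features, the minor products of the same hairpins included, which are marked by an asterisk. The array held 5 of them (rno-miR-183, rno-miR-96, rno-miR-182 and the minor rno-miR-183* and rno-miR-96*; the prefix rno, for rat, is left out below) among 677 rat miRNAs, on 14 of 1644 probes and 100 of 13540 features. miRNAs were measured in total RNA of pancreatic islets, the endocrine cell groups of the pancreas that hold the insulin-secreting beta cells, on 1-colour Agilent arrays. Adult islets came from 3-month-old male Sprague Dawley rats (4 arrays) and P10 islets from Sprague Dawley rats 10 days old, whose sex the labels do not give (4 arrays). Both source labels call the rats control animals and each array a biological replicate, and how many animals gave the islets of an array is not stated. The comparison of adult with P10 islets bears on beta-cell maturation, which the series' title names.

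The 3 miRNAs of this cluster are known from sensory cells, such as photoreceptors and the hair cells of the inner ear, and from other neuroendocrine cells, and are thought to be cut from a common primary transcript. A miRNA recognises its target messenger RNAs mainly through its seed, the bases near its 5′ end. Mutations in the seed of miR-96 cause progressive hearing loss in humans and mice. In a mouse insulin-secreting cell line, miR-96 is known to alter components of the secretory machinery, and in human cancer cells miR-96 and miR-182 are known to repress the transcription factor FOXO1. In the mouse retina the levels of all of the cluster's main products are known to follow light.

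The mature sequences are shown because the seeds set the targets of each product and because the products resemble each other. They are those of the RefSeq entries on the GRCr8 assembly, written 5′ to 3′ with the seed (bases 2 to 8) in capitals, and all were on the minus strand.
miR-183 (chr4:59756106-59756127): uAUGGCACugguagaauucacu
miR-96 (chr4:59755901-59755923): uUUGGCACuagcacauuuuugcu
miR-182 (chr4:59752249-59752273): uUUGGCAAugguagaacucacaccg
miR-183*, the opposite arm of the miR-183 hairpin (chr4:59756067-59756087): uGAAUUACcgaagggccauaa

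With positions counted from 1 at the 5′ end, the seeds of miR-96 and miR-182 differed by C8A (miR-96 first), and those of miR-183 and miR-96 by A2U (miR-183 first). miR-183 and miR-182 differed in the seed by A2U and C8A (miR-183 first), but over all positions this pair was the most alike, with 18 of 22 bases identical and the other differences being U17C and U22A. miR-183 and miR-96 shared 13 of 22 positions, and miR-96 and miR-182 shared 12 of 23. Whether a probe of 1 product also bound another was not tested. Among 724 rat mature sequences of the RefSeq table, 0 others carried bases 2 to 7 of any of the 3.

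The hairpins are shown to place the products within the locus, with the mature arms in capitals. In the direction of transcription Mir183 came first, 97 bases before Mir96, and Mir182 followed after 3533 bases, so that the locus spanned 3908 bases. No protein-coding gene of the RefSeq table overlapped it, and the nearest ones on its sides were Ube2h, before Mir183, and Nrf1, beyond Mir182.
Mir183 (chr4:59756044-59756153, minus strand): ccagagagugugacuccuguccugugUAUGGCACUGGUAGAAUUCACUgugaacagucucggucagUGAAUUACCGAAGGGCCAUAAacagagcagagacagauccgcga
Mir96 (chr4:59755841-59755946, minus strand): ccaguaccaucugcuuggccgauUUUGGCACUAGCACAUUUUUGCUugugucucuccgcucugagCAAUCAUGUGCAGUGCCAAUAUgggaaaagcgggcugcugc
Mir182 (chr4:59752246-59752307, minus strand): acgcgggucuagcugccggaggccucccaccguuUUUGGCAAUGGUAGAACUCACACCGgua

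Array brightness differed within P10. The 75th percentile signal of the 278 probes that rose well above background everywhere was 1284 to 1677 on adult arrays and 388 to 1690 on P10 arrays, with P10 replicates 1 and 2 dimmest (388 and 440). Each array was divided by this value, so a scaled log2 value of 0 equals that array's percentile, and differences are relative to the bulk of the miRNAs measured. All arrays lay on 1 slide, with the ages in separate slide columns, so a column effect and an age effect cannot be told apart. P10 replicates 1 to 4 lay in slide rows 1 to 4 in that order, and their brightness rose with the row. Within P10, a row effect and a difference between replicates therefore cannot be told apart. On adult arrays the brightness did not rise steadily with the row. Of 238 miRNAs tested with limma, 113 were called at an adjusted p under 0.05 (47.5%), 65 higher and 48 lower in adult islets.

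In adult islets miR-183 and miR-96 were each present at about 2-fold the P10 level, and miR-182 at 1.21-fold without passing the test. Thus 2 of the 3 main products were called higher, where 27.3% of all tested miRNAs were, and 0 were called lower, where 20.2% were. The minor products miR-183* and miR-96* were not tested, being well above background on 1 and 0 of the 8 arrays.

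miR-183, the product nearest the start of the cluster, had scaled log2 values of -0.26, -0.13, -0.13 and -0.23 on adult replicates 1 to 4, against -1.80, -1.35, -0.87 and -1.01 on P10 replicates 1 to 4. The adult arrays lay within a narrow band and the P10 arrays were spread over a wide one, with all adult values above all P10 values and a gap of 0.62 between the nearest. The processed signals behind them were 1134, 1278, 1533 and 1094 in adult islets and 112, 173, 540 and 841 in P10 islets. The scaled means were -0.19 ± 0.07 in adult islets and -1.26 ± 0.41 in P10 islets (SD, n = 4 each). The log2 difference was 1.07 ± 0.20 (SE), a 2.10-fold higher level in adult islets (95% interval 1.52 to 2.89, limma adjusted p = 0.00293). Of all tested miRNAs, 45.8% likewise had no overlap of the ages, and 25.6% had every adult array above every P10 array.

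P10 replicates 1 and 2 were both the lowest in miR-183 and the dimmest arrays. The islet endocrine marker list (miR-375, miR-7a, miR-7b and miR-204), summed as linear scaled signal, was also lowest there, at 11.7 and 17.9 on P10 replicates 1 and 2, against 25.1 and 25.4 on replicates 3 and 4. So were the endothelial markers, at 2.34 and 2.83, against 4.43 and 4.71, and the mesenchyme markers, at 4.27 and 4.78, against 6.11 and 7.38, as were the leukocyte markers, at 1.06 and 0.721, against 1.43 and 3.64. The acinar markers (miR-216a, miR-216b and miR-217) were higher on P10 replicates 1 and 2, at 0.961 and 0.801, against 0.0807 and 0.0660 on replicates 3 and 4, and so was the epithelial list, at 16.34 and 16.03, against 13.73 and 10.86. The gut epithelium and erythroid sums did not divide these pairs of arrays. A linear sum mostly follows its brightest members, so it does not show that the members of a list moved alike. The brightest were miR-375 and miR-7a of the islet endocrine list and miR-126 of the endothelial markers. Among the mesenchyme markers miR-143 was brightest, with a P10 scaled log2 mean of 1.57, beside 0.44 for miR-199a-3p, the next. The part of these differences in the miR-183 result was not tested. In bulk RNA, fewer cells of a type and less RNA per cell cannot be told apart. Without P10 replicates 1 and 2, the miR-183 difference was 0.75 and still passed (limma adjusted p = 0.000650). Set against the median of all tested miRNAs, then 0.10, the miR-183 difference was 0.65, beside 1.08 with all arrays. Without P10 replicates 3 and 4 the miR-183 difference was 1.39.

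miR-96, the product with the seed linked to hearing loss, had scaled log2 values of 0.58, 0.60, 0.73 and 0.64 on adult replicates 1 to 4, against -0.44, -0.19, -0.40 and -0.28 on P10 replicates 1 to 4. Both ages were tight, and the lowest adult array stood 0.77 above the highest P10 array. The processed signals were 2024, 2130, 2780 and 1997 in adult islets and 287, 386, 752 and 1393 in P10 islets. The scaled means were 0.64 ± 0.07 in adult islets and -0.32 ± 0.11 in P10 islets (SD, n = 4 each). The log2 difference of 0.96 ± 0.10 (SE) corresponds to a 1.95-fold higher level in adult islets (95% interval 1.66 to 2.29, limma adjusted p = 0.000168). Unlike the values of miR-183, the P10 values of miR-96 did not separate the dim replicates 1 and 2 from replicates 3 and 4, and without replicates 1 and 2 the difference was 0.97. Set against the median of all tested miRNAs in the same fit, that difference was 0.87, beside 0.98 with all arrays.

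miR-182, the product at the far end of the cluster, had scaled log2 values of -2.43, -2.37, -2.41 and -2.19 on adult replicates 1 to 4, against -2.67, -2.43, -2.64 and -2.78 on P10 replicates 1 to 4. The ages met at P10 replicate 2, which was level with the lowest adult array, adult replicate 1. The processed signals were 250.5, 270.1, 316 and 281 in adult islets and 61.2, 81.8, 159 and 246 in P10 islets. The scaled means were -2.35 ± 0.11 in adult islets and -2.63 ± 0.15 in P10 islets (SD, n = 4 each). The log2 difference of 0.28 ± 0.11 (SE) did not pass (limma adjusted p = 0.0845), and its 95% interval ran from 0.01 to 0.54, or 1.01-fold to 1.45-fold. Without P10 replicates 1 and 2 the difference was 0.36 and passed (limma adjusted p = 0.0272). The median of all tested miRNAs was then 0.10. Set against that median, the miR-182 difference was 0.26, beside 0.29 with all arrays. Without P10 replicates 3 and 4 the miR-182 difference was 0.19.

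**Figure D1:**
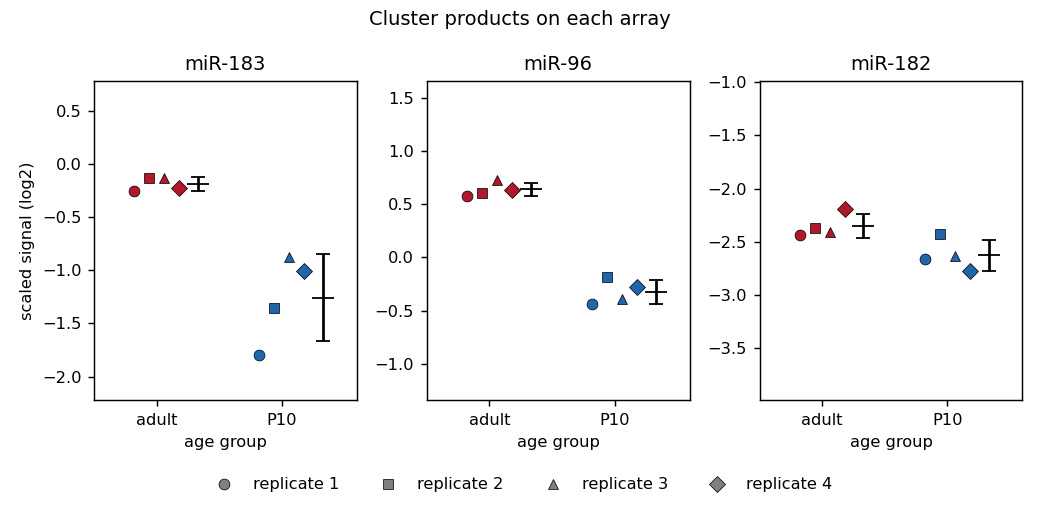
Scaled signal (log2, y axis) of the main products miR-183, miR-96 and also miR-182 on the 4 adult (red) and 4 P10 (blue) arrays; symbols mark the replicate, and the bar at the right of each group gives the mean and SD. Each panel spans 3 log2 units: the ages are apart for miR-183 and miR-96 and meet for miR-182, and the P10 arrays are spread widely for miR-183 only among the 3.

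The number of probes and features behind these values differed between the products. miR-183 and miR-96 each had 2 probes of 10 features, well above background on all 8 arrays. The second, dimmer probe of miR-183 gave a difference of 1.02, and that of miR-96 gave 0.88, so that the probes of each miRNA differed by less than 0.1 log2 units. miR-182 rested on 1 probe of 6 features. Of its other probes, 1 was well above background on 1 adult array and the other on none, and both were at the floor of the scaled values on all 8 arrays. Within an array the log2 SD between the features of the miR-182 probe was 0.02 to 0.24 on adult arrays and 0.05 to 0.18 on P10 arrays. It was of like size for the brighter probe of miR-183, at 0.03 to 0.18 on adult and 0.07 to 0.18 on P10 arrays. For the brighter probe of miR-96 it was 0.04 to 0.18 on adult and 0.07 to 0.10 on P10 arrays.

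Whether the 3 products changed unequally was tested with their ratios within each array, which do not depend on a scaling factor between arrays. A ratio between different probes is not a ratio of molecules, so only its change between the ages is read. In all, 6 ratios were tested with an exact two-sided permutation test, for which 0.0286 is the smallest p that 4 against 4 arrays allow. This p is reached only where the ages do not overlap, so such a p and a lack of overlap are the same observation. The p-values were adjusted over the 6 ratios, which share members and are not independent.

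miR-183 and miR-96 both rose relative to miR-182. The log2 ratio of miR-183 to miR-182 was 2.17 ± 0.14 in adult islets and 1.37 ± 0.47 in P10 islets (SD, n = 4 each), a difference of 0.79 or 1.73-fold (exact permutation p = 0.0286, adjusted p = 0.0429). All 4 adult arrays (1.96 to 2.28) lay above all 4 P10 arrays (0.87 to 1.77). This size leaned on P10 replicates 1 and 2, at 0.87 and 1.08, against 1.77 and 1.77 on replicates 3 and 4; without replicates 1 and 2 it was 0.40. The log2 ratio of miR-96 to miR-182 was 2.99 ± 0.13 in adult islets and 2.30 ± 0.13 in P10 islets (SD, n = 4 each), a difference of 0.69 or 1.61-fold (exact permutation p = 0.0286, adjusted p = 0.0429). The adult arrays spanned 2.83 to 3.14 and the P10 arrays 2.23 to 2.50, and without P10 replicates 1 and 2 the difference was 0.62. Since the smallest p passes the adjustment only where at least 4 of the 6 ratios reach it, a call can be lost without a smaller difference. With normexp background correction both ratios stayed at an exact permutation p of 0.0286 with differences of 0.88 and 0.93, but at an adjusted p of 0.0857. With quantile normalization miR-183 over miR-182 differed by 0.74 (exact permutation p = 0.0286, adjusted p = 0.0571). Smaller differences at an exact permutation p of 0.0571 were found for miR-96 over miR-182 in the authors' value table (0.37) and with quantile normalization (0.48), and for both ratios with cyclic loess on bright probes (0.59 and 0.31). Cyclic loess over all probes gave 0.27 for miR-183 over miR-182 and -0.14 for miR-96 over miR-182, and neither passed.

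The ratio of miR-183 to miR-96 was not shown to differ. It was -0.82 ± 0.06 in adult islets and -0.93 ± 0.40 in P10 islets (SD, n = 4 each; log2 difference 0.11, exact permutation p = 0.629, adjusted p = 0.629). The adult arrays lay inside the P10 range of -1.36 to -0.48, with P10 replicates 1 and 2 below them and replicates 3 and 4 above.

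As a measure from the islet endocrine cells on the same array, miR-375, the best known miRNA of islets, was used. It had scaled log2 values of 3.59 to 3.91 in adult islets and 2.89 to 3.57 in P10 islets, well above background on every array. Its own log2 difference of 0.47 passed narrowly (limma adjusted p = 0.0485), was called in 9 of 28 other ways of processing the arrays, and was negative with quantile normalization (-0.30), with cyclic loess on bright probes (-0.28) and in the authors' value table (-0.41). Relative to it, miR-183 was higher in adult islets by 0.60 (-3.92 ± 0.20, against -4.52 ± 0.12 in P10 islets; SD, n = 4 each; exact permutation p = 0.0286, adjusted p = 0.0429). miR-96 was higher relative to miR-375 by 0.50 (-3.10 ± 0.18, against -3.59 ± 0.30 in P10 islets; exact permutation p = 0.0286, adjusted p = 0.0429). In both ratios every adult array lay above every P10 array, which the smallest p already states. The share of all tested miRNAs whose ratio to miR-375 separated the ages was not computed. The sizes moved with the processing, to 1.65 and 1.30 in the authors' value table, where both calls held, to 1.45 and 1.18 with quantile normalization and to 1.28 and 1.00 with cyclic loess on bright probes. In the last 2 settings both ratios stayed at an exact permutation p of 0.0286 (adjusted p = 0.0571). They did not pass under normexp (0.32 and 0.37) or after cyclic loess over all probes (0.61 and 0.20). The ratio of miR-182 to miR-375 was -6.09 ± 0.09 in adult islets and -5.90 ± 0.36 in P10 islets (log2 difference -0.19, exact permutation p = 0.4, adjusted p = 0.480). Its P10 values were split, at -5.56 and -5.61 on replicates 1 and 2 and at -6.20 and -6.21 on replicates 3 and 4. In the authors' value table this ratio was higher in adult islets by 0.93 and passed (exact permutation p = 0.0286, adjusted p = 0.0429).

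**Figure D2:**
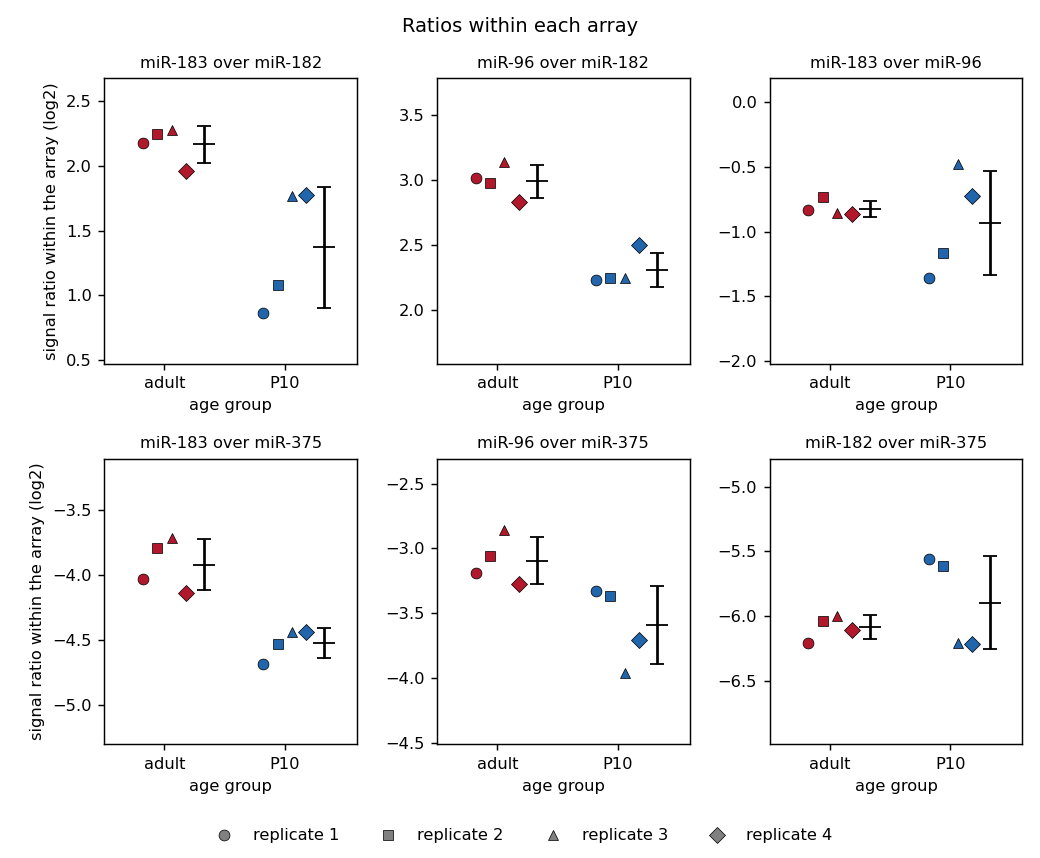
Log2 ratio of the signals of 2 miRNAs on the same array (y axis) for 4 adult (red) and 4 P10 (blue) arrays; symbols mark the replicate and bars the mean and SD, and every panel spans 2.2 log2 units. The ages are apart for miR-183 and miR-96 over miR-182 and over miR-375, and overlap for miR-183 over miR-96 and miR-182 over miR-375.

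The minor arms were at the limit of the array. The brightest of the 4 probes of miR-183* had processed signals of 19.7, 17.4, 31.2 and 23.8 on adult replicates 1 to 4, against 0.0373, 1.94, 7.10 and 16.6 on P10 replicates 1 to 4. The lowest adult signal, 17.4, was close to the highest P10 signal, 16.6, and these signals are not scaled for the brightness of the arrays. Without scaling, the median of all tested miRNAs was itself 0.94 log2 units higher in adult islets. The probe was well above background on adult replicate 3 alone. Its scaled value was at the floor on all 8 arrays, so that no fold is given. The scanner software called miR-183* detected on 3 of 4 adult arrays and 0 of 4 P10 arrays. In the authors' value table it stood at 3.64 ± 0.25 in adult islets and 2.73 ± 0.48 in P10 islets (log2 units, SD, n = 4 each). miR-96* had no probe well above background on any array, was detected on 0 arrays by the software and had no line in that table. miR-182* had no probe on the array.

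How alike the 3 products were across arrays was described by the root mean square distance between their log2 profiles, each centred on its own mean over the 8 arrays. The distance was 0.25 between miR-183 and miR-96, 0.36 between miR-96 and miR-182 and 0.50 between miR-183 and miR-182. Of 161 other miRNAs above background on all 8 arrays, 8 lay closer to miR-183 than miR-96 did, and 12 lay closer to miR-96 than miR-183 did. For the pair of miR-183 and miR-182, 98 of the 161 lay closer to miR-182 than miR-183 did, and 47 lay closer to miR-183 than miR-182 did. For miR-96 and miR-182, 68 lay closer to miR-182 than miR-96 did, and 32 lay closer to miR-96 than miR-182 did. The median distance of the 161 was 0.68 from miR-183, 0.60 from miR-96 and 0.43 from miR-182.

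By the same measure, the 5 profiles nearest to miR-183 were those of let-7e (0.07), miR-24 (0.13), miR-98 (0.14), miR-497 (0.16) and miR-195 (0.19). All 5 were called higher in adult islets, by 1.01 to 1.36 log2 units. With quantile normalization let-7e (0.53, limma adjusted p = 0.111) and miR-24 (0.52, limma adjusted p = 0.0699) lost the call and the others kept it. With cyclic loess over all probes only miR-497 kept it. Nearest to miR-96 were miR-27b (0.08), miR-185 (0.10), miR-98 (0.13), miR-200c (0.16) and miR-24 (0.17), called higher by 0.87 to 1.04. Each of these was called in 26 or 27 of the 28 other ways of processing. Nearest to miR-182 were miR-425 (0.11), miR-30c (0.12), miR-652 (0.12), miR-26b (0.13) and let-7f (0.13), with differences of 0.18 to 0.38, of which miR-30c did not pass. The calls of the others depended on the processing. Over the 28 other ways, miR-425 was called in 14, miR-652 in 13, miR-26b in 19 and let-7f in 20. The let-7f calls include cyclic loess on bright probes, where it was lower in adult islets (-0.36). miR-98 and miR-24 stood in the first 2 lists, and no miRNA of the third list was in either of them. These lists are descriptions over 8 arrays that share 2 age groups. Their members were picked for profiles near that of each product on the same arrays. Differences and calls like those of the product follow largely from that choice and are no separate result.

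**Figure D3:**
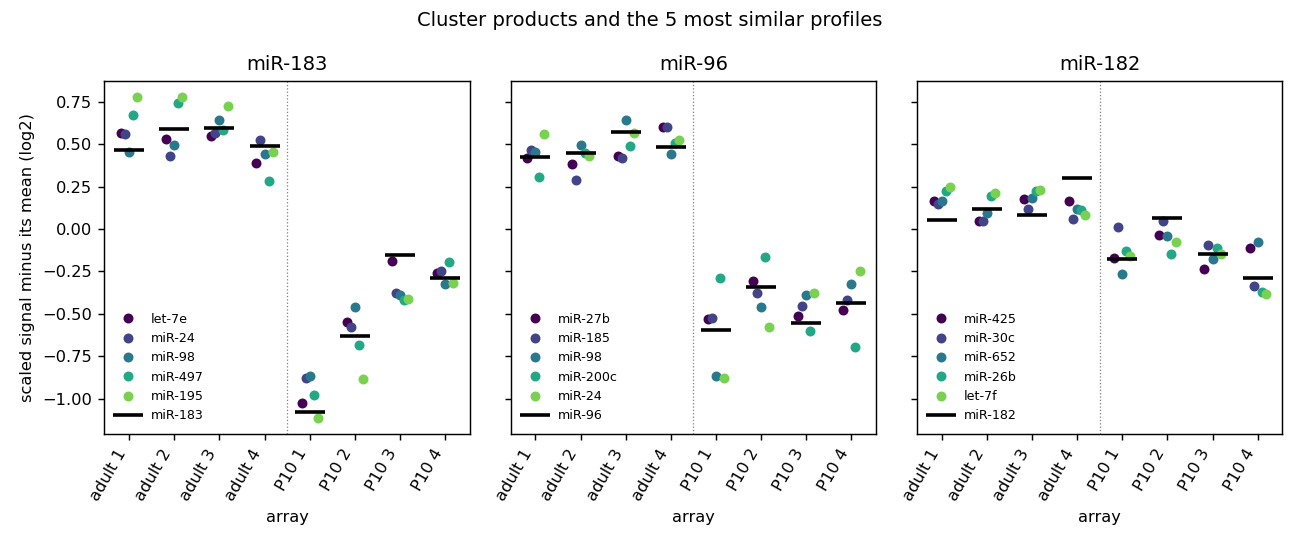
Scaled log2 signal minus the mean over the 8 arrays (y axis) for miR-183, miR-96 and miR-182 (black dashes) and the 5 other miRNAs with the nearest profile to each (coloured dots), by array (x axis, adult left of the dotted line, P10 right). The P10 dashes of miR-183 lie lowest on replicates 1 and 2, those of miR-96 are level, and those of miR-182 stay near the adult ones.

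Other miRNAs of neuroendocrine and sensory cells were compared as a list of 12, of which 8 could be tested. Of these, 6 rose in adult islets and 0 fell, where 27.3% and 20.2% of all tested miRNAs did. The median log2 difference was 1.35, beside -0.01 over all tested miRNAs. Of the 6, 4 also make up the islet endocrine list (miR-375, miR-7a, miR-7b and miR-204). The examples were miR-129 (2.46, above background on 2 of 4 P10 arrays and at the floor on 1), miR-204 (1.91), miR-7a (1.85) and miR-153 (1.61). miR-124 and miR-9, known from neurons, were not well above background on any array, and miR-211, known from retinal pigment cells together with miR-204, was so on 1 adult array.

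The epithelial list, made up of the miR-200 family, miR-203 and miR-205, is known from epithelial cells at large. Of its 7 tested members 2 rose, miR-200c (0.87) and miR-141 (0.47), and 1 fell, close to the 27.3% and 20.2% of all tested miRNAs, with a median of -0.29. miR-141 was negative in the authors' value table (-0.16), with quantile normalization (-0.33) and with both forms of cyclic loess (-0.20 each). The member that fell was miR-203 of skin and other lining epithelia (limma adjusted p = 0.00112), for which no size is given, as 3 of 4 adult arrays were at the floor.

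Markers of other cells were read against the shares of all tested miRNAs, 27.3% higher and 20.2% lower in adult islets. All 3 gut epithelium markers fell, miR-215 being at the floor on all 4 adult arrays, with sums of 0.280 to 0.508 in adult islets and 1.11 to 13.5 in P10 islets. Of 5 mesenchyme markers 3 fell and 1 rose (sums of 5.10 to 7.11 in adult islets and 4.27 to 7.38 in P10 islets). The marker that rose, miR-143, was the brightest of them and weighed most in these sums. Both tested erythroid markers rose (0.250 to 0.652 in adult islets and 0.147 to 0.253 in P10 islets). Of these, miR-144 was at the floor on 2 of 4 P10 arrays and on 1 adult array. The endothelial markers (2 tested), the leukocyte markers (4 tested) and the acinar markers (3 tested) did not pass. Of the acinar markers, miR-216a had a difference of 0.61, miR-217 of 0.51 and miR-216b of -0.47, and the sums were 0.230 to 0.460 in adult islets and 0.0660 to 0.961 in P10 islets. The islet endocrine list was called higher in 4 of 4 members, of which miR-375 changed sign under 3 alternatives as given above, with sums of 43.1 to 49.2 in adult islets and 11.7 to 25.4 in P10 islets. With quantile normalization miR-7a was not called (0.95, limma adjusted p = 0.113). The part of these shifts in the cluster's differences was not tested.

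Over 28 other ways of processing the arrays, miR-183 and miR-96 were higher in adult islets in every one and called in 27; the exception was cyclic loess over all probes (0.63 and 0.22, limma adjusted p = 0.205 and 0.656). miR-182 was higher in 27 of the 28 and called in 7, with -0.038 under normexp. The filter, floor, variance trend and block alternatives left the differences of these miRNAs unchanged and altered only the test. Their signs therefore add nothing to these counts. Scaling moved the sizes: without scaling between arrays miR-183 was at 2.03 and miR-96 at 1.92, and with spike-in scaling at 2.12 and 2.01, while the median of all tested miRNAs was at 0.94 and 1.03 in those settings. Set against the median of all tested miRNAs in the same setting, the difference of miR-183 was 0.48 to 1.14 over the 10 other scalings and signal measures, that of miR-96 0.07 to 1.19 and that of miR-182 0.12 to 0.36, with the lowest values of miR-183 and miR-96 under cyclic loess over all probes. The lowest value of miR-182 came from the mean of all its probes. That mean combines its 1 measured probe with probes at the floor on all 8 arrays, which shrinks the difference.

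**Figure D4:**
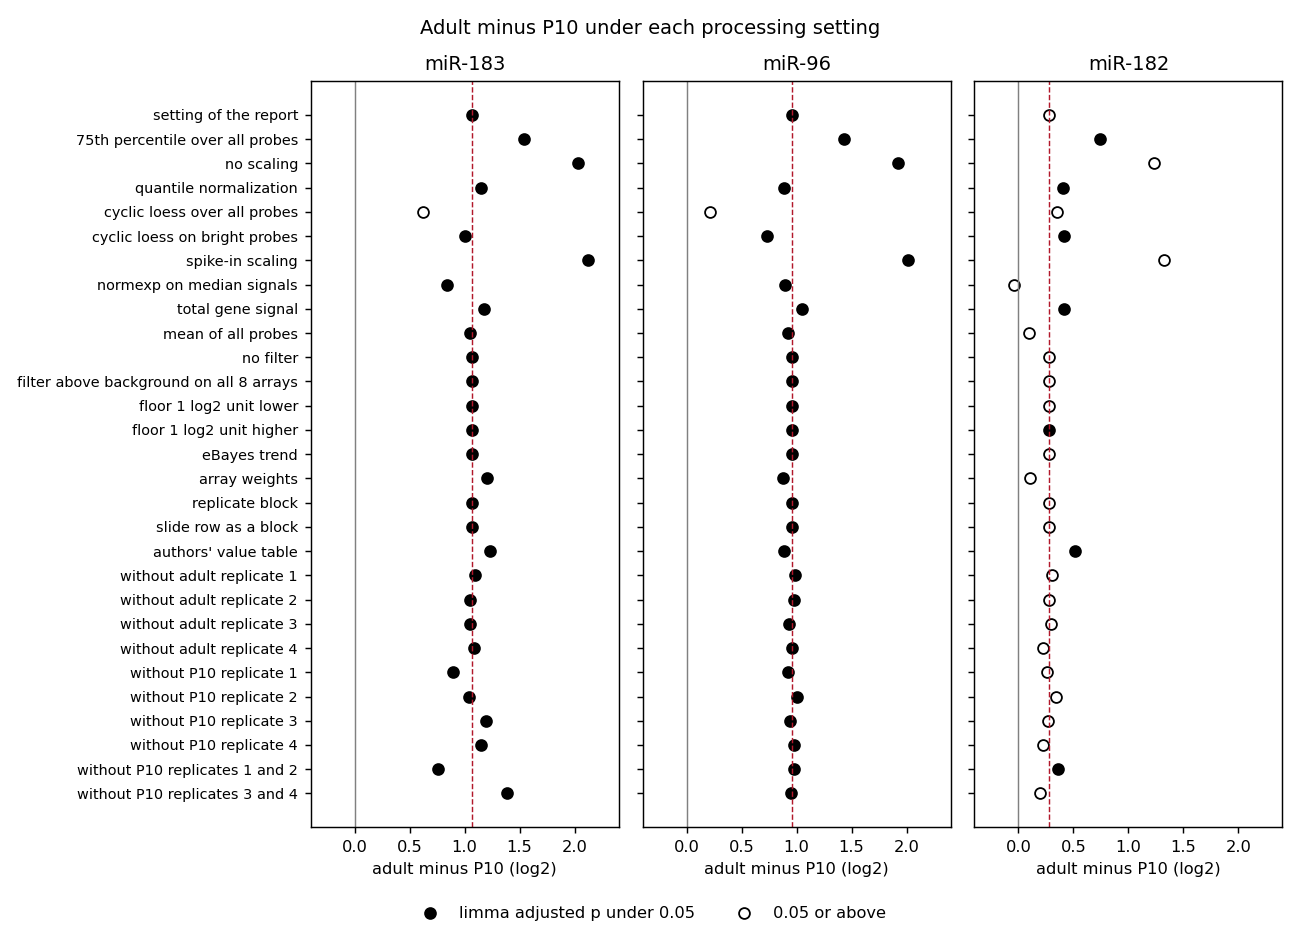
Adult minus P10 difference (log2, x axis) for each main product under the setting of the report and the 28 alternatives (rows); filled circles passed the limma test, open circles did not, and the dashed line marks the report's value. miR-183 and miR-96 are filled in all rows but cyclic loess over all probes, and miR-182 is open in most.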

How the data were processed

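The deposited scanner files hold intensity values from Agilent Feature Extraction (version 10.7.3.1 per the file headers), with the processed signal already background-subtracted. The authors' deposited value table holds log2 values for 311 miRNAs, and the steps behind it are not given in the sources used here. The array design uses the rn4 build, per the file headers; the coordinates printed are those of the RefSeq sequences on GRCr8, to which 5 of 5 products were matched by name.

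Features flagged as outliers (2.34% to 3.65% per array) were left out and 0 non-control features were saturated. Features of a probe were averaged, divided by the array's 75th percentile over the 278 probes with that call on every array, raised to a common floor (-5.51 in log2, from the 1st percentile of probes above background), and log2 was taken. The brightest probe stood for each miRNA. Testing of 238 miRNAs, those well above background on 4 or more arrays, used limma 3.58.1 (R 4.3.3; adult minus P10) and Benjamini-Hochberg adjustment, with 0.05 as threshold. Precision is limited by the number of arrays. The limma step was tested on simulated data.

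The members, lists and alternatives were chosen with earlier results of these data known. Named were the cluster's products, the 5 profiles nearest to each main product, miR-375 and miR-216a, and up to 4 called members per list with the largest differences; untested neuronal markers were added after their values were seen. The listed miR-216b was measured under its name miR-216b-5p, and no feature was named miR-486 or miR-155. The normexp alternative used median signals. Alternatives covered scaling, background, probes, filter, floor, variance, blocks and left-out arrays.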

Additional observations from a re-analysis of the deposited data

Results flagged for a closer look

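In each of the 18 groups of 4 values formed by the 3 main products and their 6 ratios in both ages, the gap of the farthest array was set against the range of the group, a measure that chance alone exceeds in about 1 in 20 groups. It was exceeded once. The log2 ratio of miR-96 to miR-182 was 2.50 on P10 replicate 4, against 2.23 to 2.24 on P10 replicates 1 to 3, with a gap of 0.944 of the range. All adult values of this ratio (2.83 to 3.14) lay above P10 replicate 4, and without that array the difference between the ages was 0.75.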

How the results depend on the processing

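Pairing of the arrays by replicate number was not shown, and 4 pairs are too few to exclude it. The correlation of deviations between same-numbered arrays ran from -0.23 to 0.48 over the 4 pairs, and 2 of 4 adult arrays correlated best with their own number. With the replicate block 51 miRNAs were called higher and 44 lower in adult islets, miR-183 and miR-96 kept their calls (limma adjusted p = 0.0101 and 0.00460) and miR-182 stayed uncalled (adjusted p = 0.194); the ratios keep their size under a block and were not tested there. Leaving out each array in turn gave 45 to 78 higher and 38 to 60 lower calls, differences of 0.89 to 1.20 for miR-183, 0.93 to 1.01 for miR-96 and 0.22 to 0.34 for miR-182, and ratio differences of 0.63 to 0.93 for miR-183 over miR-182, 0.64 to 0.75 for miR-96 over miR-182 and -0.035 to 0.26 for miR-183 over miR-96, with the ratios not tested. Against 65 higher and 48 lower calls in the report, there were 12 and 22 with cyclic loess over all probes, 58 and 17 without scaling, 59 and 9 with spike-in scaling, 88 and 91 with array weights, 89 and 93 without P10 replicates 3 and 4, 33 and 46 with normexp, 43 and 40 with the filter on all 8 arrays, and 90 and 34 with the percentile over all probes.

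miR-183 (0.63) and miR-96 (0.22) failed the test with cyclic loess over all probes; the cause was not tested. miR-182 passed with the percentile over all probes (0.74), quantile normalization (0.41), cyclic loess on bright probes (0.41), total gene signal (0.41), the authors' value table (0.52), a floor 1 unit higher (0.28, adjusted p = 0.0467) and without P10 replicates 1 and 2 (0.36), and turned to -0.038 with normexp. miR-183 over miR-182 failed with quantile normalization (0.74), cyclic loess over all probes (0.27) or on bright probes (0.59) and normexp (0.88), and moved to 0.40 and 1.19 without P10 replicates 1 and 2 or 3 and 4. miR-96 over miR-182 failed with quantile normalization (0.48), cyclic loess on bright probes (0.31), normexp (0.93) and the authors' value table (0.37), and turned to -0.14 with cyclic loess over all probes. Some of these failures came from the adjustment alone, since fewer of the 6 ratios reached the smallest p the design allows, 0.0286: miR-183 over miR-182 with normexp and quantile normalization, and miR-96 over miR-182 with normexp, kept it. miR-183 over miR-375 failed with quantile normalization (1.45), cyclic loess over all probes (0.61) or on bright probes (1.28) and normexp (0.32), and miR-96 over miR-375 in the same settings (1.18, 0.20, 1.00 and 0.37); with quantile normalization and cyclic loess on bright probes both kept an exact permutation p of 0.0286 and were larger than in the report. miR-182 over miR-375 turned to 0.34 and 0.69 with cyclic loess over all and on bright probes, 0.93 in the authors' value table and 0.70 with quantile normalization, and was 0.12 and -0.50 without P10 replicates 1 and 2 or 3 and 4. miR-183 over miR-96 turned to -0.053 with normexp, and was -0.22 and 0.44 without P10 replicates 1 and 2 or 3 and 4.

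Among the other miRNAs named, the sign turned with quantile normalization for miR-375 (-0.30), miR-26b (-0.096), let-7f (-0.23) and miR-141 (-0.33, limma adjusted p = 0.0263), with cyclic loess over all probes for miR-30c (-0.088), let-7f (-0.17) and miR-141 (-0.20), with cyclic loess on bright probes for miR-375 (-0.28), miR-30c (-0.11), miR-26b (-0.0023), let-7f (-0.36) and miR-141 (-0.20), with normexp for miR-425 (-0.098), and in the authors' value table for miR-375 (-0.41), let-7f (-0.24) and miR-141 (-0.16); the causes were not tested.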
